A study of Mus musculus with 6 samples.

Results

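Fibroblasts of the mouse brain were described here from nuclei that the authors' deposited annotation calls fibroblasts, which were 412 of 28650 nuclei (1.44%). They came from microdissected hippocampi of male PS19 mice, a line with a mutant human tau (P301S) transgene that is used as a model of tau pathology, and single-nucleus RNA was counted with 10x Genomics 3' chemistry. The 6 libraries were TBI with AAV-VEGFC, left and right hippocampus, TBI with AAV-GFP, left and right hippocampus, sham with AAV-VEGFC, right hippocampus, and sham with AAV-GFP, right hippocampus. All mice carried the transgene and all received an adeno-associated virus (AAV), which coded for VEGFC, a growth factor of lymphatic vessels, or for green fluorescent protein (GFP) as the control. TBI was a mild traumatic brain injury by controlled cortical impact on the right side, and sham was the operation without impact. Each library was the sole one of its combination, and the labels give neither age nor the number of mice in it, nor whether both hemispheres were taken from the same animals.

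Fibroblasts of the brain lie in the meninges, the membranes around it, in the stroma of the choroid plexus and along larger vessels. They lay down collagens and laminins, make retinoic acid, which acts on neighbouring cells, and carry transporters of amino acids and organic anions. In the meninges their layers border the lymphatic vessels that VEGFC acts on through its receptor Flt4. After injury, fibroblasts of the meninges and vessels are known to contribute to scar tissue.

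The 412 nuclei held 609804 unique molecular identifier (UMI) counts, 45757 to 157647 per library. A nucleus had 1001 to 5094 UMIs, with a median of 1359.5, against 2941 over all nuclei. Levels below are CPM, the UMIs of a gene scaled to a common total of the fibroblast UMIs of a library, on which 1 UMI is worth 6.34 to 21.9 CPM, so that a gene without a UMI can still stand at up to 19.0 to 65.6 CPM by counting error alone (3 UMIs). The left libraries, with 27 and 32 nuclei, are the least precise. The median doublet score was 0.0724 in fibroblasts, against 0.0393 over all nuclei. Of the 91 cell barcodes that libraries share, 2 were those of fibroblast nuclei.

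Markers of fibroblasts were high in these nuclei. All 15 genes of a fibroblast marker list had UMIs in these nuclei, with a summed level of 9703 to 11184 CPM over the 6 libraries, and 404 of the 412 nuclei had UMIs of at least 3 of them. Dcn, a small matrix proteoglycan, averaged 329 CPM in fibroblasts and 17.4 CPM in the next class, excitatory neurons. Col1a2, a chain of type I collagen, averaged 319 CPM in fibroblasts and 5.15 CPM in choroid plexus epithelium. Slc6a13, a transporter of GABA and taurine, averaged 1160.2 CPM in fibroblasts and 3.43 CPM in choroid plexus epithelium. Bnc2, a zinc finger protein, averaged 435 CPM, against 25.2 CPM there, and Cped1 averaged 1689.6 CPM, against 45.8 CPM in astrocytes. Dcn alone of these 5 was also high in a group of neurons, at 233 CPM in excitatory cluster 7 of the authors.

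Markers of other cells of the vessel wall were partly there. Of 16 endothelial genes, Ptprb, Mecom and Vwf were at 0 and Cldn5, the tight junction gene of brain endothelium, had 2 UMIs. Cdh5, the cadherin of endothelial junctions, nonetheless averaged 138 CPM in fibroblasts, against at most 1.06 CPM in any other class, and its 75 UMIs lay in 65 nuclei. Of 16 mural genes, the smooth muscle genes Myh11 and Cnn1 and the pericyte gene Kcnj8 were at 0, while Vtn, Pdgfrb and Ebf1 averaged 651, 331 and 449 CPM. The lymphatic endothelial genes Lyve1, Flt4, Ccl21a and Mmrn1 were at 0. The 14 neuron markers summed to 751 to 942 CPM in 5 libraries and to 1903 CPM in the sham GFP library. Without Meg3 and Csmd1, members of that list that are described below, the other 12 summed to 818 CPM in sham GFP and to 350 to 750.1 CPM in the other libraries. Ttr, the most familiar product of choroid plexus epithelium, stood at 375 to 927 CPM in fibroblasts, against 8349 to 11052 CPM in choroid plexus epithelium, 411 to 961 CPM in oligodendrocytes and 127 to 332 CPM in excitatory neurons.

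The genes that set fibroblasts furthest apart from the next class were of mixed kinds, among them transporters, an enzyme of retinoic acid synthesis, transcription factors and matrix genes. Among 4348 genes with at least 50 CPM, 102 were at 10 times the level of the next highest class or more. These genes are given as a description with no test, since the authors drew the class from the same counts. The highest ratio belonged to Slc6a12, a transporter of betaine and GABA, at 111 ± 38.1 CPM (SD, n = 6 libraries), against 0.166 CPM in astrocytes. Aldh1a2, an enzyme that makes retinoic acid, followed at 555 ± 122 CPM, against 0.923 CPM in mixed neurons. Transcription factors of mesenchyme came next, with Prdm6 at 327 ± 90.9 CPM, Tbx18 at 292 ± 68.7 CPM, Foxd1 at 340.1 ± 36.8 CPM and Osr1 at 136 ± 61.6 CPM, against 0.599 to 1.29 CPM in the class next to each. Foxd1 and Eya2, a transcriptional coactivator at 530.5 ± 41.2 CPM, were among the steadiest of the 25 over libraries. Themis, known from T cell development, was among the least steady, at 87.4 to 514 CPM. Matrix genes of the 25 were Nid1 (nidogen), Col3a1, Col1a2, Col13a1 and Lamc3 (a laminin chain), and those for signals and receptors were Wnt6, Il13ra2, which binds interleukin 13 without signalling through the usual route, Ptgdr, a receptor of prostaglandin D2, and Musk, a receptor kinase of the nerve and muscle junction.

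**Figure D1:**
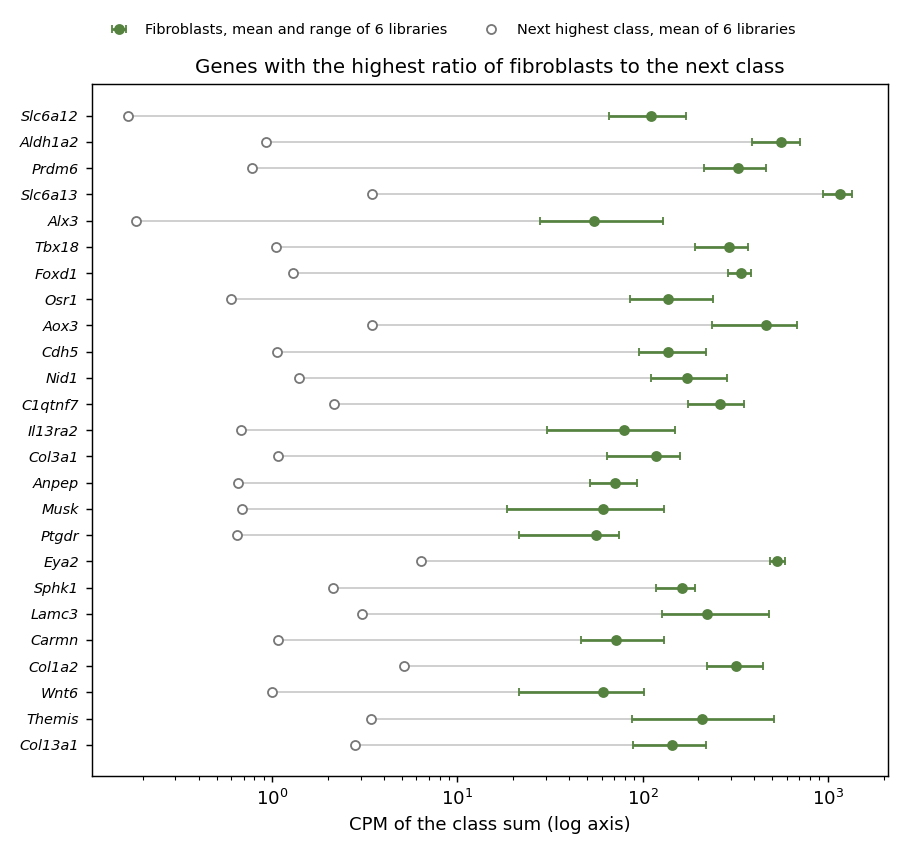
The 25 genes with the highest ratio of fibroblasts to the next highest class. Filled points are the mean CPM of fibroblasts with the range of the 6 libraries, open points the mean of the next class, on a log axis. Slc6a12 stands at the top with 111 CPM in fibroblasts, against 0.166 CPM in astrocytes.

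The fibroblast nuclei fell into a large cluster and smaller ones beside it, and how the large one divides depended on the setting. Clustering gave 275, 87 and 50 nuclei in clusters 1, 2 and 3, while a finer setting gave 155, 117, 87 and 53 and a coarser one 326 and 86. The clusters stay unnamed, and the genes that lead them are a description with no test. Cluster 1 was led by Mgat4c, a glycosyltransferase at 824 CPM in cluster 1, against 59.1 CPM in the other nuclei, and held Cyp26b1, which degrades retinoic acid, at 305 CPM, against 19.7 CPM. Cluster 2 was led by Rspo2, an enhancer of Wnt signalling, at 429 CPM, against 6.35 CPM, and by Nnat (neuronatin, a small membrane protein) at 5876 CPM, against 508 CPM. It also held most Bnc2, at 1504 CPM, against 172 CPM, and all 21 UMIs of Cdh1, the cadherin of the arachnoid barrier, in 12 nuclei. Of the 167 UMIs of 6 arachnoid barrier markers, 105 lay in cluster 2. Of those 105, 41 were of Spp1, which was higher in cluster 3, at 505 CPM, than in cluster 2, at 298 CPM. Cluster 3 was led by Olfr1033, with 95.8% of its UMIs there from 1 nucleus, and then by Il33, an alarmin, and Itga8, an integrin chain.

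Cluster 2 took up unlike shares of the libraries. It made up 7.41% of fibroblasts in TBI VEGFC left, 15.6% in TBI GFP left, 32.4% in TBI VEGFC right, 20.6% in TBI GFP right, 15.2% in sham VEGFC right and 23.8% in sham GFP right, on 2 to 24 nuclei. At a coarser setting 86 of its nuclei formed a group of their own, and at a finer one all 87 did. Arachnoid barrier markers summed to 219 and 107 CPM in TBI left (VEGFC, GFP), to 213 and 366 CPM in TBI right and to 102 and 406 CPM in sham right. The sum in TBI VEGFC left was Spp1 alone, with 10 UMIs, and the other markers of the list had 0 UMIs there. Of these 10 UMIs, 9 were in 1 nucleus of cluster 2, which held 4734 UMIs in all and was also rich in astrocyte markers. Cdh1 had 1 UMI in all VEGFC libraries and 20 in all GFP libraries, of which 14 were in sham GFP.

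**Figure D2:**
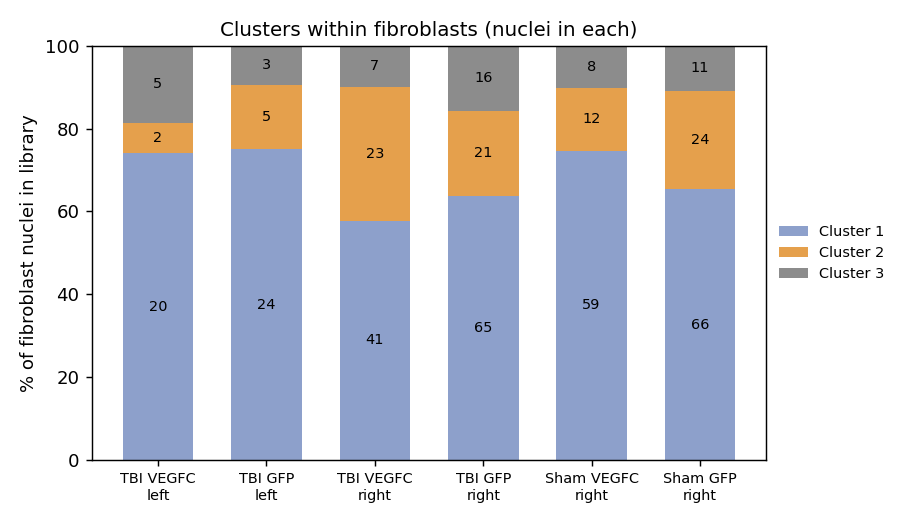
Share of the fibroblast nuclei of each library that fell into clusters 1, 2 and 3, stacked to 100%, with the number of nuclei written in each bar. Cluster 2 ranges from 2 nuclei in TBI VEGFC left to 24 in sham GFP right.

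Fibroblasts made up a smaller share of the left libraries than of the right ones. They were 0.734% of nuclei (27 nuclei) in TBI VEGFC left and 0.590% (32 nuclei) in TBI GFP left. In TBI right they were 1.66% with VEGFC and 2.06% with GFP, and in sham right 1.32% with VEGFC and 2.34% with GFP. Exact Clopper-Pearson 95% intervals, which cover counting error only, did not overlap between the left and right TBI libraries, the closest bounds being 1.07% in TBI VEGFC left and 1.30% in TBI VEGFC right. The log2 ratio of left to right was -1.81 with GFP and -1.17 with VEGFC, while the same ratio for choroid plexus epithelium was -0.55 and 0.02. No source used here says how much of the meninges each dissection took, and its part in this was not tested.

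For this share, VEGFC and GFP libraries differed by less than the spread between contexts. VEGFC over GFP was 0.32 in TBI left, -0.31 in TBI right and -0.83 in sham right on the log2 scale, with a mean of -0.28 ± 0.58 (SD, n = 3 contexts). An exact two-sided sign-flip permutation test gave p = 0.75, and the smallest p it allows is 0.25. Among non-neuronal nuclei all 3 ratios were below 0, with a mean of -0.28 and p = 0.25 in the same exact test.

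**Figure D3:**
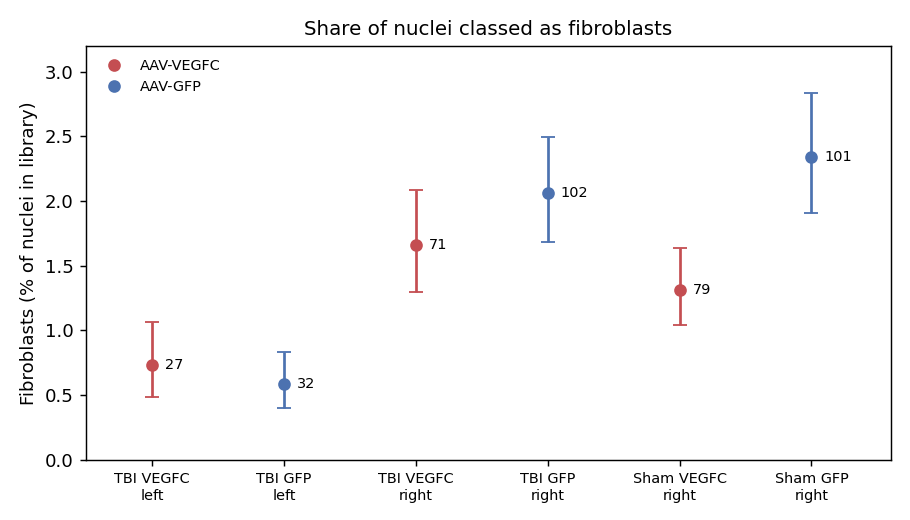
Share of nuclei classed as fibroblasts in each library, in percent, with exact 95% intervals and the number of fibroblast nuclei beside each point. Both left libraries lie below 1.07%, the upper bound in TBI VEGFC left, and all right libraries lie above them.

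Gene levels were then compared over the 6 sums with the quasi-likelihood test of edgeR, with 1 term for vector and 1 for the combination of injury and side. With 2 residual degrees of freedom and nothing repeated, the spread was borrowed wholly from other genes, so a small p does not measure how well these libraries agree on a gene. Folds are log2 with their SE, and a gene was called where its p, adjusted by Benjamini-Hochberg over all 2789 genes tested, was under 0.05. The background of calls was 0.0359% of genes for VEGFC against GFP (1 gene), 0.143% for TBI right against sham right (4 genes, of which 3, or 0.108%, were lower) and 0.179% for TBI left against TBI right (5 genes). DESeq2 on the same sums called 0, 0 and 2 genes. At an unadjusted p under 0.05, edgeR gave 110, 134 and 159 genes and DESeq2 5, 6 and 26.

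H2-D1, a class I heavy chain of the major histocompatibility complex that presents peptides to T cells, was lower after TBI in the injured hemisphere. Its gene lies on chromosome 17, 35262730 to 35267499 (mm10, GENCODE annotation, plus strand). It had 20.3 and 32.6 CPM in TBI right (VEGFC, GFP; 2 and 5 UMIs), against 111 and 209 CPM in sham right (12 and 33 UMIs). The left TBI libraries stood at 87.4 and 193 CPM (4 and 9 UMIs). The right TBI libraries were thus below all others, with either vector, and did not overlap with sham. The fold of TBI right against sham right was -2.53 (SE 0.56, adjusted p = 0.0062 in edgeR), and that of TBI left against TBI right was 2.35 (SE 0.71) without passing the threshold.

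The H2-D1 UMIs came from 56 nuclei, with at most 4 in any of them, and with no more than 3 UMIs counted per nucleus the fold was -2.47 (adjusted p = 0.0231). The call was lost with DESeq2 (fold -2.56), with limma-voom (fold -2.48, adjusted p = 0.252), without nuclei with over 2 neuron marker UMIs per 1000 (fold -2.44, adjusted p = 0.213) and without any 1 of the 4 right libraries (TBI VEGFC, TBI GFP, sham VEGFC, sham GFP), at folds of -2.64 to -2.29 and adjusted p = 0.161 to 1.00. Its direction was the same under all 17 alternatives. Within cluster 1 it stood at 16.9 and 30.5 CPM in TBI right, against 112 and 273 CPM in sham right (fold -2.94, adjusted p = 0.26). Summed over all nuclei of a library, H2-D1 stood at 14.2 and 16.3 CPM in TBI right and at 19.4 and 17.6 CPM in sham right, and in microglia at 402 and 346 CPM in TBI right and at 460 and 297 CPM in sham right. Whether fibroblasts differ in this from other classes was not tested. H2-K1, its near relative, had 91.1 and 124 CPM in TBI right, against 158 and 127 CPM in sham right, and did not pass (fold -0.31, SE 0.42). Class I genes resemble each other, so how reads were divided between them adds uncertainty to both.

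Pde10a, a phosphodiesterase that degrades cAMP and cGMP and is best known from the striatum, was the gene called for VEGFC against GFP. It lies on chromosome 17, 8525372 to 8986648 (mm10, plus strand). In VEGFC libraries it had 787 CPM in TBI left, 81.0 CPM in TBI right and 1141 CPM in sham right, and in GFP libraries 236, 150.2 and 101 CPM in the same order. It was thus high in TBI VEGFC left and sham VEGFC right, while TBI VEGFC right was the lowest of all 6. The fold over the contexts was 1.89 (SE 0.28, adjusted p = 6.4e-08 in edgeR), and by context it was 1.74 in TBI left, -0.89 in TBI right and 3.49 in sham right. Without the sham VEGFC library it was 0.59 (adjusted p = 0.999), and without the sham GFP library 0.61 (adjusted p = 1.00).

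Pde10a was also called lower in TBI right against sham right (fold -1.74, SE 0.34, adjusted p = 0.000662) and higher in TBI left against TBI right (1.71, SE 0.39, adjusted p = 0.00627). These comparisons share the TBI right libraries. Without the sham VEGFC library the first was 0.05, and without the TBI VEGFC right library they were 0.12 and -0.22. Without TBI GFP right they were -3.58 and 3.46, and without sham GFP the first was -2.81. The call on the left was also lost without TBI VEGFC left or TBI GFP left (folds 1.80 and 1.62). Its 123 UMIs in the sham VEGFC library lay in 17 nuclei, with 26 in the highest, and counting at most 3 UMIs per nucleus gave 1.39 (adjusted p = 0.148) for the vector. In inhibitory neurons it averaged 856 CPM, with 825, 998 and 814 CPM with VEGFC (TBI left, TBI right, sham right). With GFP these neurons had 1059, 604 and 836 CPM. Astrocytes had 137, 120 and 104 CPM with VEGFC, against 66.2, 74.2 and 83.2 CPM with GFP. Choroid plexus epithelium had 124, 40.5 and 121 CPM with VEGFC, against 33.2, 46.0 and 80.2 CPM with GFP. Whether fibroblasts differ in Pde10a from other classes was not tested.

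**Figure D4:**
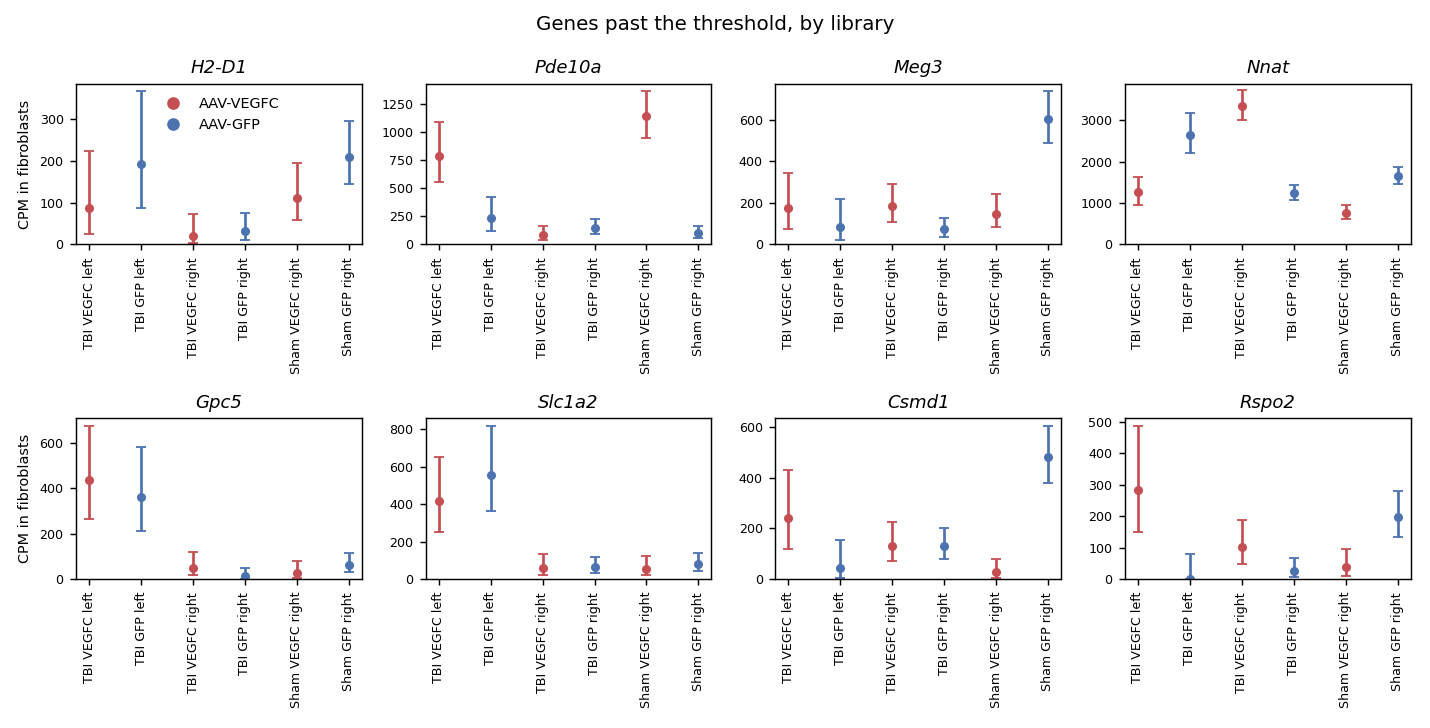
CPM of 8 of the 10 genes past the threshold in fibroblasts, by library, with exact 95% Poisson intervals that cover counting error only. H2-D1 is at 20.3 and 32.6 CPM in TBI right, and at 87.4 CPM or more in each other library. Meg3 and Csmd1 are highest in sham GFP, at 603 and 482 CPM. The next highest libraries are TBI VEGFC right for Meg3, at 182 CPM, and TBI VEGFC left for Csmd1, at 240.4 CPM.

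Nnat and Meg3, both imprinted genes, were the other calls of TBI right against sham right. Nnat had 3352 and 1254 CPM in TBI right (VEGFC, GFP), against 760 and 1662 CPM in sham right. The groups overlap, and the fold of 0.99 (SE 0.24, adjusted p = 0.0287 in edgeR) rested on TBI VEGFC right, without which it was -0.37. The call was also lost without sham VEGFC (fold 0.28) and without TBI VEGFC left or TBI GFP left (0.85 each), and the fold was 1.74 without sham GFP and 2.17 without TBI GFP right. Nnat leads cluster 2, which held 32.4% of that library's fibroblasts. Within cluster 1 it stood at 981 and 467 CPM in TBI right and at 411 and 312 CPM in sham right (fold 0.97, adjusted p = 0.966). The gene lies on chromosome 2 inside the span of Blcap, which runs on the other strand.

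Meg3, a long noncoding RNA abundant in neurons, had 182 and 71.8 CPM in TBI right, against 148 and 603 CPM in sham right. The fold was -1.63 (SE 0.36, adjusted p = 0.0062 in edgeR). Of the 95 UMIs in sham GFP, 71 were in 1 nucleus, and without it the fold was -0.35 (adjusted p = 0.997). Without the whole sham GFP library it was 0.31, without TBI GFP right -0.11, without sham VEGFC -2.96 and without TBI VEGFC right -2.85. Without Meg3 and Csmd1, neuron markers summed to 818 CPM in that library, against 575 CPM in sham VEGFC, and the part of neuronal RNA in this result was not tested.

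In TBI left against TBI right, 4 genes joined Pde10a, all of them higher on the left. Slc1a2, the main glutamate transporter of astrocytes, had 415 and 557 CPM in TBI left (VEGFC, GFP), against 60.8 and 65.3 CPM in TBI right. Gpc5, a heparan sulfate proteoglycan of astrocytes, had 437 and 364 CPM in TBI left, against 50.6 and 13.1 CPM in TBI right. Their folds were 2.92 (SE 0.44) and 3.74 (SE 0.56), both with adjusted p = 3.86e-08 in edgeR. Most of these UMIs lay in 1 nucleus of each left library: 17 of 19 and 26 of 26 for Slc1a2, and 19 of 20 and 14 of 17 for Gpc5. The same 2 nuclei held 45 and 43 astrocyte marker UMIs, against at most 5 in any other fibroblast nucleus, beside 24 and 22 fibroblast marker UMIs, with doublet scores of 0.0914 and 0.0928. Over all fibroblast nuclei, astrocyte markers summed to 7103 and 6644 CPM in TBI left, against 5873 and 4728 CPM in TBI right. Fgf14 (fold 2.74, SE 0.56) and Asic2, an acid-sensing channel (3.61, SE 0.74), had adjusted p = 0.000729 each, and 13 of 20 Fgf14 UMIs of TBI VEGFC left, 12 of 14 Asic2 UMIs of that library and 10 of 11 of TBI GFP left were from 1 nucleus each. Without TBI GFP right, Gpc5, Slc1a2 and Fgf14 each had adjusted p = 0.0742. Fgf14 also lost its call without TBI VEGFC left or TBI VEGFC right, and Asic2 without TBI GFP left, TBI VEGFC left or TBI VEGFC right. Without the nucleus with most of its UMIs in each left library, Slc1a2 had 48.8 and 0 CPM in TBI left (VEGFC, GFP; 2 and 0 UMIs), which is below both TBI right libraries, Gpc5 had 24.4 and 69.0 CPM, and Asic2 had 45.0 and 22.0 CPM. Fgf14 then had 170.6 and 88.4 CPM (7 and 4 UMIs), which is still above its 40.5 and 39.2 CPM in TBI right. With at most 3 UMIs counted per nucleus, 0 genes were called on the left with edgeR and 148 had an unadjusted p under 0.05.

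**Figure D5:**
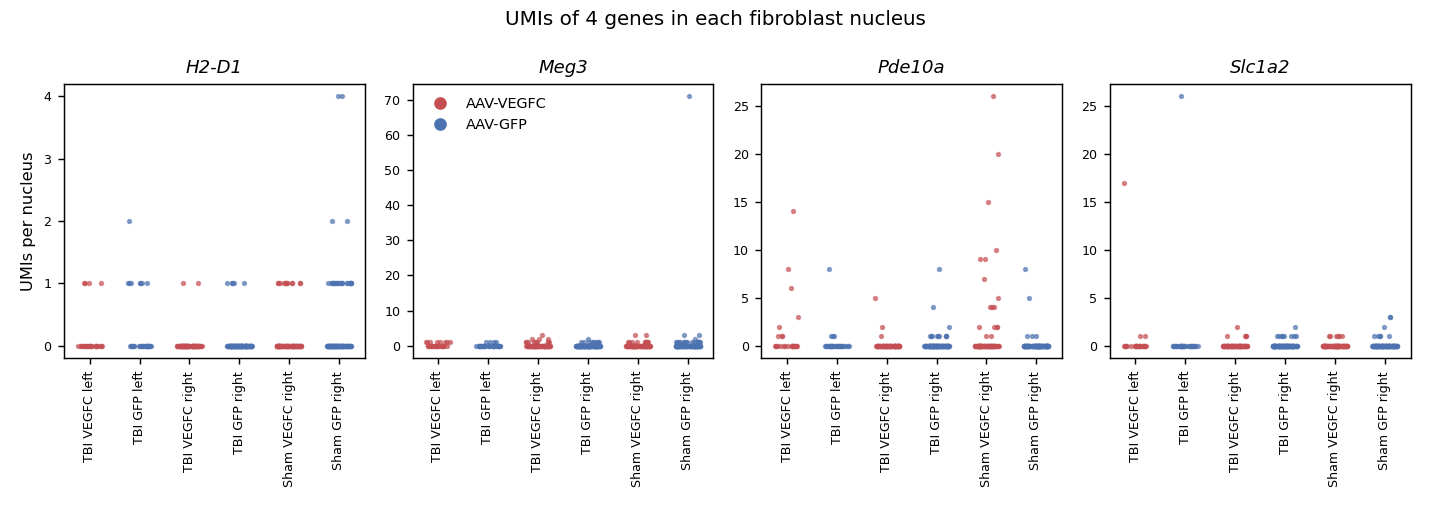
UMIs of H2-D1, Meg3, Pde10a and Slc1a2 in each fibroblast nucleus, by library, each point 1 nucleus spread sideways. H2-D1 is spread over nuclei with 1 to 4 UMIs, Meg3 in sham GFP has 71 UMIs in 1 nucleus, and Slc1a2 on the left comes from 1 nucleus with 17 and 1 with 26 UMIs.

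The difference between the VEGFC effect in TBI and that in sham libraries was tested over 3797 genes, with the left and right TBI libraries taken as 2 samples and 1 sham library per vector, whose spread is assumed to be like that of the others. The background of calls was 0.105% (4 genes with edgeR, 0 with DESeq2, and 124 and 7 at an unadjusted p under 0.05), with 0.079% higher and 0.0263% lower. Csmd1, a large membrane protein that inhibits complement, had 240.4 and 132 CPM in TBI VEGFC (left, right) and 42.9 and 131 CPM in TBI GFP, against 27.8 CPM in sham VEGFC and 482 CPM in sham GFP. Its VEGFC effect was 4.74 higher after TBI than after sham (SE 0.82, adjusted p = 2.72e-05). In sham GFP 37 of its 76 UMIs were in 1 nucleus, and without that nucleus the difference was 3.83 (adjusted p = 0.0207). Rspo2 differed by 5.42 (SE 1.07), Meg3 by 3.28 (SE 0.66) and Pde10a by -2.47 (SE 0.60), with adjusted p = 0.000687, 0.001 and 0.0412 in edgeR. Without the nucleus with most of its UMIs, Rspo2 was at 4.39 (adjusted p = 0.355), Meg3 at 1.35 (adjusted p = 1.00) and Pde10a at -2.16 (adjusted p = 0.306). Meg3 lost its call without TBI GFP right or TBI VEGFC right, and Pde10a without these or TBI GFP left. Without TBI GFP right, Rspo2 was at 9.36. Without TBI VEGFC left, Pde10a was at -4.49. None of the 4 passed with at most 3 UMIs counted per nucleus.

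The receptors of VEGFC were at or near 0 in fibroblasts, while other genes that receive VEGF signals were not. Flt4, the main receptor of VEGFC, had 0 UMIs in all 6 libraries, and Kdr, the other one, had 0 to 4 per library. Vegfc itself had 1, 3 and 9 UMIs in VEGFC libraries (TBI left, TBI right, sham right), against 3, 7 and 10 UMIs in GFP libraries. No source used here says whether RNA from the vector adds to this gene. Nrp2, a coreceptor of VEGFC, had 87.4, 111 and 111 CPM in VEGFC libraries, against 42.9, 52.2 and 44.4 CPM in GFP libraries, and Nrp1, a coreceptor of VEGFA, had 153, 152 and 83.5 CPM, against 42.9, 71.8 and 44.4 CPM. Both were higher with VEGFC in all 3 contexts and neither passed the threshold (folds 1.16, SE 0.56, and 1.14, SE 0.50). These levels rest on 2 to 15 UMIs per library, and 7 of the 15 Nrp1 UMIs in TBI VEGFC right were in 1 nucleus. In TBI GFP left both genes, at 42.9 CPM, were below the counting floor of 64.3 CPM. Flt1, a receptor of VEGFA that does not bind VEGFC, averaged 156 ± 61.3 CPM (SD, n = 6 libraries), against 51.4 CPM in microglia, the next class. It had 153, 273 and 121 CPM in VEGFC libraries, against 129, 157 and 101 CPM in GFP libraries, higher with VEGFC in all 3 contexts without passing the threshold (fold 0.53, SE 0.35).

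No matrix gene passed the threshold. The lists of collagens, basement membrane, proteoglycans and glycoproteins, and proteases with their inhibitors had 0 calls in each of the 3 comparisons. With VEGFC, 7 of 9 tested collagens were higher (median fold 0.22), 6 of 10 basement membrane genes (0.12), 8 of 11 proteoglycans and glycoproteins (0.27) and 4 of 5 proteases and inhibitors (0.28), against a median of -0.00 over all genes tested. In TBI right against sham right the medians of these lists were -0.04, 0.13, 0.09 and -0.01, against -0.01 over all. In TBI left against TBI right they were 0.31, 0.53, -0.11 and 0.34, against 0.015 over all. Col1a2 had 328, 223 and 445 CPM in VEGFC libraries (TBI left, TBI right, sham right), against 321, 281 and 317 CPM in GFP libraries. Lama2, a laminin chain whose loss gives a muscular dystrophy, had 1158 and 986 CPM in TBI left, 932 and 673 CPM in TBI right and 937 and 837 CPM in sham right, with VEGFC given first in each pair. The scar list (20 genes, 2 tested) had 0 calls. Ccn2, a target of TGF-beta and YAP signalling, was at 152 and 124 CPM in TBI right, against 167 and 121 CPM in sham right, and Spp1, osteopontin, at 132 and 196 CPM, against 74.2 and 114 CPM (fold 0.83, SE 0.41). The cell cycle list had 0 to 43.7 CPM in all, with no gene high enough to test.

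Transporters and the retinoic acid pathway were likewise without a call. Of 12 tested transporters of the meninges, 6 were higher and 6 lower with VEGFC (median 0.02), and 5 were higher and 7 lower in TBI right (median -0.10). Slc6a20a, a proline transporter, stayed at 1814 to 2400 CPM in all libraries, and Slc7a11, the cystine and glutamate exchanger, had 3366 to 5332 CPM. Aldh1a2 had 590.1, 638 and 705 CPM in VEGFC libraries (TBI left, TBI right, sham right), against 579, 431 and 387 CPM in GFP libraries, and its fold of 0.56 (SE 0.23) did not pass. Cyp26b1 had 172 and 131 CPM in TBI right (VEGFC, GFP), against 250.4 and 292 CPM in sham right, also without passing (fold -0.84, SE 0.35). Of 16 tested mesenchymal transcription factors, 8 were higher with VEGFC (median -0.01) and 7 in TBI right (median -0.04).

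Growth factor signals gave 0 calls as well. All 6 tested genes of the insulin-like growth factor list were higher with VEGFC, at a median of 0.18, and 4 of 5 of the VEGF and angiopoietin list were, at 0.77. Igf1 had 219 and 129 CPM in TBI left, 70.9 and 39.2 CPM in TBI right and 64.9 and 25.4 CPM in sham right (VEGFC before GFP in each pair), on 4 to 10 UMIs. Medians of the TGF-beta and BMP, Wnt, and PDGF and FGF lists were 0.01, 0.27 and -0.06 with VEGFC and -0.06, -0.23 and -0.12 in TBI right. Bmp6 stood at 3366 and 3065 CPM in TBI left, 2106 and 1802 CPM in TBI right and 2457 and 1960 CPM in sham right. Pdgfra, the platelet-derived growth factor receptor common to fibroblasts, had 677 and 621 CPM in TBI left, against 263 and 411 CPM in TBI right (fold 0.92, SE 0.31), without passing.

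The summed level of type I interferon genes was lowest in TBI right and, in each context, lower with VEGFC than with GFP. No member was called. The 20 genes of the list summed to 874 CPM in TBI VEGFC left, against 1157 CPM in TBI GFP left. In TBI right they summed to 658 CPM with VEGFC and 790.1 CPM with GFP, and in sham right to 909 CPM with VEGFC and 1218 CPM with GFP. Of the 6 members that passed the filter on low counts, 6 were lower with VEGFC (median -0.73), 5 were lower in TBI right against sham right (median -1.11) and 5 were higher in TBI left against TBI right (median 0.88), and 0 were called. Stat2, a transcription factor of the interferon signal, had 20.3 and 58.8 CPM in TBI right, against 83.5 and 114 CPM in sham right (fold -1.23, SE 0.65). Oasl2, an antiviral gene, had 20.3 and 52.2 CPM in TBI right, against 46.4 and 140 CPM in sham right (fold -1.28, SE 0.61). In TBI VEGFC right both genes, at 20.3 CPM, were below the counting floor of 30.4 CPM.

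The interferon UMIs were uneven between nuclei. Nuclei with at least 3 UMIs of the list were 4 of 27 and 7 of 32 in TBI left (VEGFC, GFP), 8 of 71 and 16 of 102 in TBI right, and 9 of 79 and 26 of 101 in sham right. In TBI VEGFC left the 3 highest nuclei held 57.5% of the 40 UMIs, and in sham VEGFC 35.7% of 98. Ifit3, an antiviral protein, averaged 76.0 CPM in fibroblasts, against 26.1 CPM in astrocytes and 16.1 CPM in microglia.

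To show what these genes share in sequence, the 250 bases before the RefSeq start of each were searched on both strands for GAAA, any 2 bases and GAAA again, the core of the element that interferon-stimulated factors bind (on the other strand TTTC, 2 bases, TTTC). RefSeq windows (GRCm38.p6) were there for 15 of the 20 interferon genes, and 7 of them (46.7%) held the motif, against 3.46% of 27025 genes. Of 10 complement and antigen presentation genes with a window, B2m, the light chain of class I molecules, was the 1 with it, and H2-D1 had no match. The RefSeq start of H2-D1 lies after its GENCODE start, so its window is inside the span given above and not upstream of it, and the windows of Ifit1 and B2m reach the first bases of their GENCODE spans. A match here is a description of letters and not a site, and the lack of one does not show that a site is absent. Only exact matches were counted, so the stretch tttcacttct in the H2-D1 window was not. The windows of Ifit1 and Ifit3 are shown as examples with the motif at 2 places, as Bst2 also has it and Isg15 at 3, that of B2m for its single copy, and that of H2-D1 because it was the gene called, all 5′ to 3′ on the plus strand with the motif in capitals.
Ifit1, chr19:34640639-34640888: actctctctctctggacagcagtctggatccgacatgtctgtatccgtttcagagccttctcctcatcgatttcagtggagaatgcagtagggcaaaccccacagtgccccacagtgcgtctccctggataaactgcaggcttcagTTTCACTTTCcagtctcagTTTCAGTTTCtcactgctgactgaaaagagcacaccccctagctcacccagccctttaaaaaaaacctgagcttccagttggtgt
Ifit3, chr19:34583279-34583528: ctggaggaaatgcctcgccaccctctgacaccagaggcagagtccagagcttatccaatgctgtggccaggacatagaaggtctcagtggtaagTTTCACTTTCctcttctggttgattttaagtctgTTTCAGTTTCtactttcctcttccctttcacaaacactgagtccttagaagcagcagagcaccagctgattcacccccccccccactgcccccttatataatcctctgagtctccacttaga
B2m, chr2:122147437-122147686: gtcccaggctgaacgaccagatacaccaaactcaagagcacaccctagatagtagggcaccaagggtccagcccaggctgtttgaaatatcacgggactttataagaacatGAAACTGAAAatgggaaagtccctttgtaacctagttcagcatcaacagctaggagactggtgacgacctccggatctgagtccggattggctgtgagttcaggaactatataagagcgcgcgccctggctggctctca
H2-D1, chr17:35262844-35263093: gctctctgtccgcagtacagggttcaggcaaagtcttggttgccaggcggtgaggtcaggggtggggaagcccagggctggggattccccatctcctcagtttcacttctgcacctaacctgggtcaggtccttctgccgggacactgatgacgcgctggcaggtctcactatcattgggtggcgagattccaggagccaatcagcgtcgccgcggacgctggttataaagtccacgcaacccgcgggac
In the first the motif begins 104 and 85 bases before the start, in the second 156 and 122, and in the third 139. B2m had 30.4 and 32.6 CPM in fibroblasts of TBI right (VEGFC, GFP), against 37.1 and 88.8 CPM in sham right, and the value in TBI VEGFC right is at the counting floor of that library.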

How the data were processed

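Matrices of raw UMI counts per gene and nucleus were deposited by the authors, with the cell class of each nucleus, the percent of mitochondrial UMIs and a doublet score in the deposited metadata. Cell Ranger 7.0.1, Scanpy and mm10 are named in the submitters' processing notes. No source used here names the tool behind the score or the filters. No nucleus was removed and no doublet caller was run, since scores end at 0.099. Counts of fibroblast nuclei were summed per library and tested with edgeR 4.0.16 in R 4.3.3 (filterByExpr, TMM, quasi-likelihood), with Benjamini-Hochberg adjustment over all genes tested and a threshold of 0.05. The SE is the fold divided by the square root of F. The step was tested on simulated data. Clusters came from 1500 variable genes, 10 principal components and Leiden clustering (igraph 0.11.9) at a resolution of 0.5. Folds of clusters carry 20 CPM on both sides.

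Named genes were the 5 class markers, the VEGF genes and Pde10a, the 10 largest called folds per direction (with the 5 smallest p where fewer than 5 were called), up to 4 members of each of 19 lists by level and by p, and the 25 leading genes. Clone-named models were not named. The class, lists and rules were chosen with earlier results of these data known. Alternatives were RLE factors, library totals, no filter, DESeq2 1.42.0, limma-voom (limma 3.58.1), subsets of nuclei, no context term and each library left out. Added after seeing the data were at most 3 UMIs of a gene per nucleus, cluster 1 alone and right libraries alone. The spread between these libraries may be technical. Values of some single genes are not reported here.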

Additional observations from a re-analysis of the deposited data

Results flagged for a closer look

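The effect of VEGFC over GFP differed between TBI and sham fibroblasts for 4 genes, by the edgeR test of the difference itself. The differences were 5.42 for Rspo2, 4.74 for Csmd1, 3.28 for Meg3 and -2.47 for Pde10a on the log2 scale. By context, VEGFC over GFP stood at 2.49 in TBI left, 0.01 in TBI right and -4.12 in sham right for Csmd1, and at 1.03, 1.34 and -2.02 in the same order for Meg3. Rspo2 had 13 and 10 UMIs in TBI VEGFC (left, right) and 0 and 4 UMIs in TBI GFP, against 4 UMIs in sham VEGFC and 31 UMIs in sham GFP, and 11 of the 13 in TBI VEGFC left were in 1 nucleus. Pde10a had 36 and 8 UMIs in TBI VEGFC and 11 and 23 UMIs in TBI GFP, against 123 UMIs in sham VEGFC and 16 UMIs in sham GFP. The single sham library per vector enters all 4 values, and the part of any 1 library in them was not tested on the sham side.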

How the results depend on the processing

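The calls depended on the tool and on single nuclei. VEGFC against GFP gave 1 gene in edgeR, but 0 with DESeq2, with at most 3 UMIs of a gene per nucleus, in cluster 1 alone and without nuclei over 2 neuron marker UMIs per 1000, and 3 with limma-voom and with right libraries alone. TBI right against sham right gave 4 genes, but 0 with DESeq2, in cluster 1 alone and without nuclei rich in neuron markers, and 1 with at most 3 UMIs per nucleus and among nuclei with at least 1500 UMIs. TBI left against TBI right gave 5 genes, but 2 with DESeq2, 11 with limma-voom, 0 with at most 3 UMIs per nucleus and in cluster 1 alone, 1 among nuclei with at least 1500 UMIs and 3 without nuclei rich in neuron markers. The difference of the VEGFC effect between TBI and sham gave 4 genes, but 0 with DESeq2 and with at most 3 UMIs per nucleus, and 2 with no filter on low counts. The cause was not tested. The neuron marker list holds Meg3 and Csmd1, so leaving out nuclei rich in these markers removes nuclei rich in both genes by construction. Leaving out each library gave 0 to 3, 1 to 4, 2 to 8 and 2 to 6 genes in the same order.

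Leaving out libraries turned some directions. For TBI right against sham right the folds ran from -3.58 to 0.12 for Pde10a, from -2.96 to 0.31 for Meg3 and from -0.37 to 2.17 for Nnat, and for TBI left against TBI right from -0.22 to 3.46 for Pde10a. The log2 ratio of the fibroblast share, -0.28 in all, was 0.0018 without sham right. No direction turned for H2-D1, Fgf14, Csmd1 and Rspo2 under the alternatives run. Gpc5, Slc1a2 and Asic2 gave no value with at most 3 UMIs per nucleus or without the nucleus richest in the gene, since they were then below the filter on low counts. RLE factors and the removal of nuclei led by endothelial and mural markers kept all calls of the 3 comparisons in which they were run. No paired analysis was possible because the replicate numbers in the labels run from 1 to 6 and no 2 groups share any.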

Other observations

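Ccl2, the chemokine that draws monocytes, was chosen here after its values were seen. It had 0 UMIs in all 4 TBI libraries, against 20 UMIs in sham VEGFC and 3 UMIs in sham GFP, which lay in 7 and 2 nuclei. Of the 20 in sham VEGFC, 9 were in 1 nucleus, and sham GFP alone stood at 19.0 CPM, its own counting floor, so the difference rests on the sham VEGFC library. It was below the filter on low counts and passed in edgeR where no filter was applied. In astrocytes Ccl2 stood at 3.65 and 4.98 CPM in TBI right (VEGFC, GFP), against 9.93 and 13.8 CPM in sham right.

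All 8 tested phosphodiesterases were higher with VEGFC, with a median of 0.21, against -0.00 over all genes tested, and Pde10a as the 1 called. The whole list, Pde10a included, summed to 3584, 2542 and 4572 CPM with VEGFC (TBI left, TBI right, sham right). With GFP it summed to 2593, 2481 and 2715 CPM, so the libraries of TBI right were nearly level. Pde7b, which degrades cAMP, had 568, 425 and 760.4 CPM in VEGFC libraries (TBI left, TBI right, sham right), against 600.1, 418 and 374 CPM in GFP libraries (fold 0.40, SE 0.23). Of the genes with the smallest p among those that did not pass, Parp12, an antiviral gene, was at -1.86 (SE 0.64) in TBI right against sham right. Fbn1, fibrillin, had 111 and 235 CPM in TBI right (VEGFC, GFP), against 102 and 69.8 CPM in sham right (fold 1.14, SE 0.42).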
